A study of Mus musculus with 2 samples.

Results

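The genes described here are the matrix metalloproteases (Mmp), the secreted ADAMTS proteases (Adamts), the ADAMTS-like proteins (Adamtsl) and the tissue inhibitors of metalloproteases (Timp). They were taken by symbol from the gene list of the count matrices, which gave 49 of 32285 genes: 21 Mmp, 19 Adamts, 5 Adamtsl and 4 Timp genes, and 1 further Mmp gene was not analysed here. Their unique molecular identifiers (UMIs, each standing for 1 captured RNA molecule) were counted in mouse embryonic pancreas at embryonic day 14.5. Control is a pool of 8 pancreata (Fgf9 +/+ and +/-) and Null a pool of 3 pancreata (Fgf9 -/-), each drawn from 3 litters. In the Fgf9-LacZ line an inserted LacZ cassette disrupts Fgf9, with no restriction to a tissue named in the labels. Both groups were on a C57BL/6J background, were dissociated with TrypLE and were sorted for live, DAPI-negative cells before 10x Genomics droplet capture. Each group is therefore 1 library. The 2 libraries have no replicates, no test between the groups was possible, and the 95% intervals given below cover counting error only.

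Control held 30209 barcodes and Null 16708, and 26959 and 8884 cells were kept, with medians of 5728 and 24259 UMIs per cell. Cells were named by marker genes into 10 classes: mesenchymal-like (2299 Control and 729 Null cells), mesothelial-like (1063 and 229), mural-like (80 and 44), endothelial-like (339 and 186), immune-like (407 and 275), neural or glial-like (157 and 148), acinar-like (3433 and 2503), ductal or bipotent progenitor-like (3642 and 2076), endocrine progenitor-like (788 and 317) and endocrine-like (1991 and 1034). The remaining 12760 Control and 1343 Null cells stayed unnamed. Levels are given as CPM, the UMIs of a gene scaled to a common total for the class without haemoglobin and mitochondrially encoded genes. They are not divided by gene length, so each gene is compared only with itself across classes and libraries. Fgf9 itself stood at 123 CPM in Control and 53.7 in Null mesothelial-like cells, and the labels do not say where the counted 3' ends lie relative to the cassette. Xist, the RNA of the inactive X chromosome in female cells, was at 384 CPM in Control and 0.29 in Null. Any part of embryo sex in the ratios below, for every gene, cannot be told apart from genotype. The libraries shared 180 barcodes, 76 of them among barcodes that passed the filters.

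Matrix metalloproteases and ADAMTS proteases cut collagens, proteoglycans and other extracellular proteins with a zinc ion held in the active site by histidines. The TIMP proteins block these enzymes, and TIMP3 also inhibits several ADAMTS proteases, while the ADAMTS-like proteins share the ancillary domains of ADAMTS but have no protease domain. In the embryonic pancreas the stroma and the epithelium are separated by basement membrane, and matrix turnover accompanies epithelial branching.

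The zinc-binding stretch shows the division of these families in their coding sequence, and it is printed for 10 genes whose levels are described below. In the longest coding sequence of each gene (GENCODE vM21), the pattern histidine, glutamate, any 2 residues, histidine, any 2 residues, glycine or asparagine, any 2 residues, histidine was found in 21 of 21 Mmp and 18 of 19 Adamts genes, and in 0 of 5 Adamtsl and 0 of 4 Timp genes. Adamts8 was the Adamts gene without a match. The seventh position after the leading histidine was a glycine in all 21 Mmp genes and in 13 Adamts genes, and an asparagine in 5 Adamts genes. Each stretch is 33 coding bases, 5′ to 3′, with the codons of the 3 histidines, the glutamate and the glycine or asparagine in capitals. Coordinates are GRCm38, and the Adamts stretches span an intron.
Adamts1 (asparagine, chr16:85799191-85799545, minus strand): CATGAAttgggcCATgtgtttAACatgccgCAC
Adamts9 (asparagine, chr6:92905285-92908493, minus strand): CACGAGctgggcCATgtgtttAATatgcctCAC
Adamts20 (asparagine, chr15:94353678-94355296, minus strand): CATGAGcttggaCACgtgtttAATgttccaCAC
Adamts16 (glycine, chr13:70787149-70791812, minus strand): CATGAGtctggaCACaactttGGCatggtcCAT
Adamts5 (glycine, chr16:85878015-85887826, minus strand): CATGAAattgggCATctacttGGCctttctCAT
Mmp2 (glycine, chr8:92839279-92839311, plus strand): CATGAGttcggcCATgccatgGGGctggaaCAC
Mmp16 (glycine, chr4:18051748-18051780, plus strand): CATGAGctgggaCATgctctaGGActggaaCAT
Mmp23 (glycine, chr4:155651528-155651560, minus strand): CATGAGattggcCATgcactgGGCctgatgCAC
Mmp8 (glycine, chr9:7563086-7563118, plus strand): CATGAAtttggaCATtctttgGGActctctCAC
Mmp7 (glycine, chr9:7697614-7697646, plus strand): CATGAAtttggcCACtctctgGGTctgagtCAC
The search pattern fixes part of these bases in advance, so some sharing is built in. Adamts1 and Adamts9 shared 28 of the 33 bases, and each of them also shared 28 with Adamts15. Adamts1 shared 20 with Adamts5 and also 20 with Mmp2. Mmp2 shared 25 with Mmp16, and Mmp8 shared 26 with Mmp7. A link between these counts and the levels was not tested.

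The 49 genes covered a wide range of detection. Over all kept cells of both libraries the 19 Adamts genes held 300520 UMIs, the 4 Timp genes 44041, the 21 Mmp genes 24579 and the 5 Adamtsl genes 10376. Adamts1, Adamts9, Timp2 and Timp3 had at least 10000 UMIs each, 17 further genes had at least 1000, another 17 had at least 100, and Adamts13, Adamtsl3, Mmp20 and Mmp28 had 20 to 99. Mmp3, Mmp12, Mmp13, Mmp21 and Mmp27 had 1 to 19 UMIs, and Mmp1b and Mmp10 had 0. The 0 allows up to 3 UMIs in each library. All of these nearly silent genes except Mmp21 belong to a run of 9 Mmp genes on chromosome 9, between 7272514 and 7699585, which also holds Mmp7, Mmp8 and Mmp20. Mmp7 and Mmp8 were well counted, at 645 and 361 UMIs, and Mmp20 had 68.

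The 7-base AP-1 motif TGAGTCA, or TGACTCA on the other strand, occurred in promoters of this chromosome 9 run and in no other promoter of these genes that was searched. The AP-1 factors are the Fos and Jun proteins, and the motif is a classic feature of the inducible collagenase and stromelysin promoters. RefSeq promoters (GRCm38.p6, 250 bases before to 50 after the start) were matched for 34 of the genes, 37 promoters in all. They held the motif in 6 of 37 cases (16.2%), against 1709 of 32851 promoters of all genes (5.202%). The 6 windows of 30 bases are shown because they set 5 nearly silent genes beside Mmp7, with the motif in capitals.
Mmp13 (9 UMIs, chr9:7272468-7272497, plus strand): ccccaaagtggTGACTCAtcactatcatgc
Mmp12 (4 UMIs, chr9:7347319-7347348, plus strand): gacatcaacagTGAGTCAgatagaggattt
Mmp1b (0 UMIs, chr9:7388101-7388130, minus strand): gttacaaagccTGAGTCAtatagcctctgg
Mmp3 (4 UMIs, chr9:7445765-7445794, plus strand): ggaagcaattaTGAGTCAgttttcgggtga
Mmp10 (0 UMIs, chr9:7502268-7502297, plus strand): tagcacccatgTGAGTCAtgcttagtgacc
Mmp7 (645 UMIs, chr9:7692016-7692045, plus strand): aagtgtgcaaaTGAGTCAcctatttccaca
The match ended 28 to 86 bases before the annotated start. A match of letters in a promoter is a description and does not show that a factor binds there.

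Of the 38 genes with at least 100 UMIs, 26 had their highest level in the same class in both libraries. In Control the highest level lay in mesenchymal-like cells for 14 genes, in mesothelial-like cells for 7, in ductal or bipotent progenitor-like cells for 5, and in endothelial-like, immune-like or mural-like cells for 3 each. In Null the mesenchymal-like class led for 17 genes and the mesothelial-like class for 5, with the 44 Null mural-like cells left out of this ranking. The 3 genes led by mural-like cells in Control, Adamtsl4, Timp1 and Timp3, could therefore not be among the 26. Timp1, counted among the 17, was at 63.7 CPM in Null mural-like and 56.2 in Null mesenchymal-like cells. The stromal classes thus led for more of these genes than the other classes, and the Control ductal or bipotent progenitor-like group included Adamts1, Adamts9, Adamts16, Adamts6 and Mmp7.

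**Figure D1:**
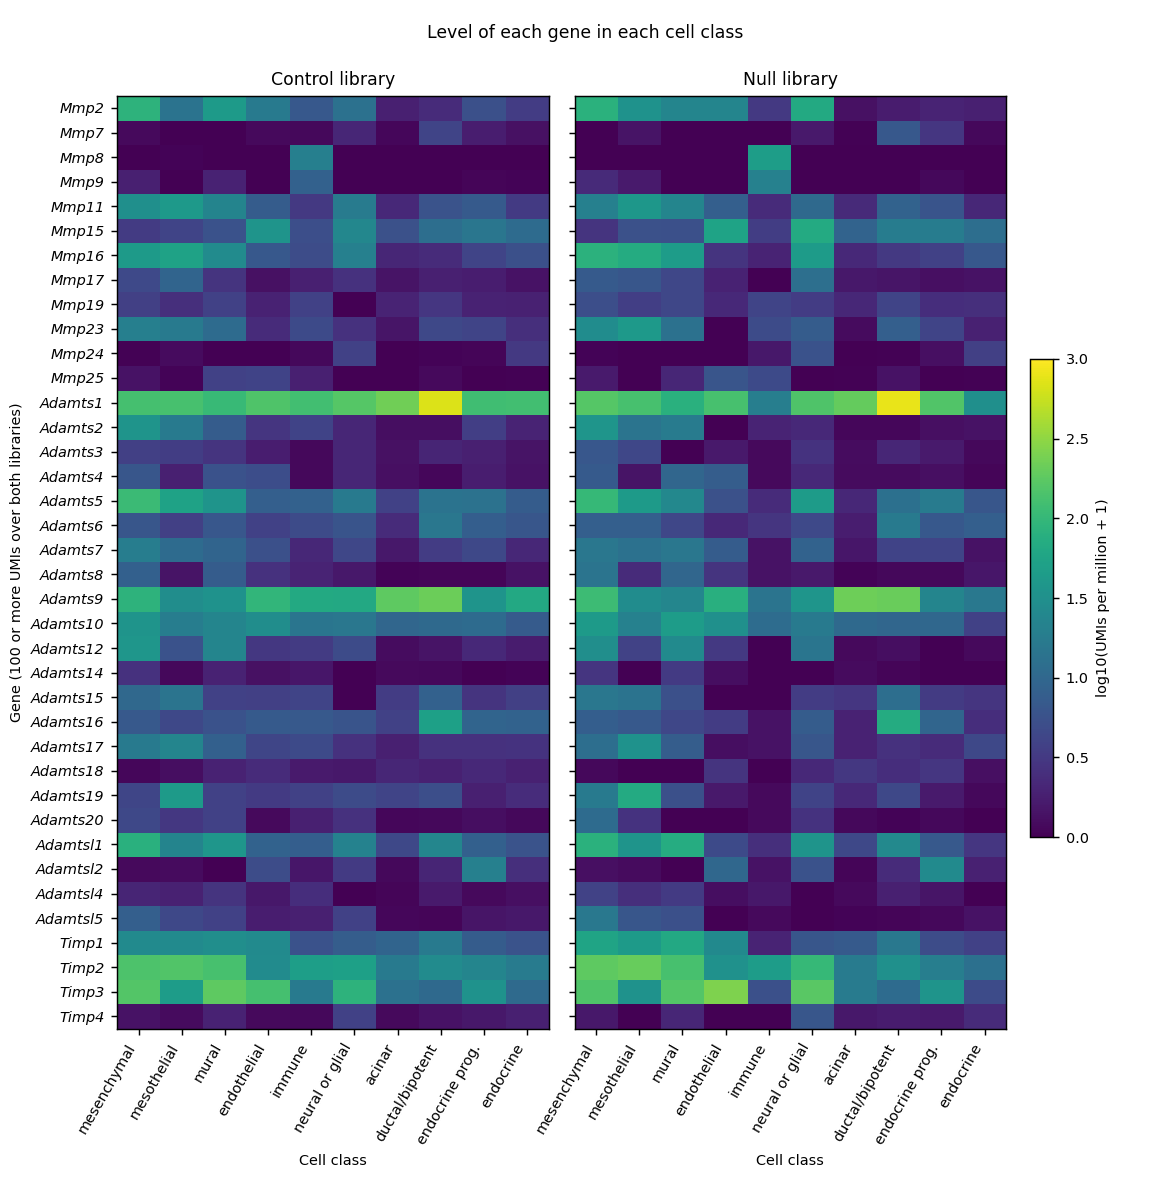
Level of each of the 38 genes with at least 100 UMIs (rows) in each cell class (columns), in the Control library on the left and the Null library on the right. Colour gives log10 of CPM plus 1. Adamts1 reached 692 and 799 CPM in ductal or bipotent progenitor-like cells, Mmp8 and Mmp9 were highest in immune-like cells, and most rows were brightest in the mesenchymal-like or mesothelial-like column.

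In the epithelium, Adamts1 (ENSMUSG00000022893, chr16:85793827-85803113) and Adamts9 (ENSMUSG00000030022, chr6:92772699-92943492), both of which cleave the proteoglycan versican, were the most widely counted genes. Adamts1 stood at 692 CPM in Control and 799 in Null ductal or bipotent progenitor-like cells, and at 225 and 197 in acinar-like cells. With each cell thinned to 2000 UMIs, 69.8% of Control and 74.8% of Null ductal or bipotent progenitor-like cells held an Adamts1 UMI, against 13.5% and 5.41% of endocrine-like cells. Adamts9 was at 212 and 206 CPM in the ductal or bipotent progenitor-like class and at 177 and 219 in the acinar-like class. Exons of Adamts9 overlap those of A730049H05Rik and Gm15737 on the opposite strand, and the sources used here do not say whether strand was used in counting. Adamts16 followed the ductal pattern, at 49.9 and 68.8 CPM there and at 8.26 and 8.62 in endocrine progenitor-like cells, its next class. Adamts6 was at 14.6 and 15.7 in the ductal or bipotent progenitor-like class. Mmp7, which codes for matrilysin, a small protease of epithelia, was at 3.10 and 5.65 CPM in that class and at 0.13 and 0.04 in acinar-like cells. Adamtsl2, which codes for a microfibril-associated glycoprotein, was highest in endocrine progenitor-like cells, at 19.4 and 26.4 CPM. Endocrine-like cells held it at only 1.56 and 0.88. The class with the highest level was the same in both libraries for each of these genes except Adamts9, which led in ductal or bipotent progenitor-like cells in Control and in acinar-like cells in Null.

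In the stroma, Mmp2 (gelatinase A, which degrades type IV collagen) was at 86.9 CPM in Control and 81.6 in Null mesenchymal-like cells. Adamts5, a main aggrecanase, was at 111 and 102 there and at 52.4 and 42.2 in mesothelial-like cells. In Null, neural or glial-like cells came next after mesenchymal-like cells for both genes, with Mmp2 at 65.6 and Adamts5 at 43.5 CPM. Adamts12, Adamts2 (the procollagen N-proteinase) and Adamtsl1 were also highest in mesenchymal-like cells of both libraries, Adamts2 at 35.2 and 35.7 CPM. Mesothelial-like cells led for Adamts19, at 41.7 and 67.1 CPM, and for Adamts17, at 22.3 and 32.8. Mmp11 (stromelysin-3) was at 41.3 and 38.1 in mesothelial-like and at 29.9 and 19.04 in mesenchymal-like cells. Exons of Mmp11 overlap those of Chchd10 on the opposite strand. Timp2, whose protein also takes part in activating pro-MMP2, was spread over both stromal classes, at 143 and 178 CPM in mesenchymal-like and 154 and 198 in mesothelial-like cells.

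Timp3, the matrix-bound inhibitor, was shared by stromal and vascular classes. It was at 155 CPM in Control and 147 in Null mesenchymal-like cells, at 178 and 155 in mural-like cells and at 128 and 261 in endothelial-like cells. Its exons overlap those of Syn3 on the opposite strand, and exons of Adamts4, Adamts7, Adamts8, Mmp7, Mmp12, Mmp19, Mmp24, Mmp28 and Timp4 also overlap a gene on the opposite strand, so their counts are uncertain. Mmp15, a membrane-type protease, was at 34.9 and 53.7 CPM in endothelial-like and at 23.5 and 66.8 in neural or glial-like cells. Mmp25 and Mmp28 were highest in endothelial-like cells, at 3.03 and 5.19 and at 3.22 and 5.80 CPM. The enzymes of neutrophil granules, Mmp8 (neutrophil collagenase) and Mmp9 (gelatinase B), were highest in immune-like cells, whose leading genes included S100a9 and S100a8. Mmp8 stood at 18.8 and 46.3 CPM there, and Mmp9 at 7.65 and 19.8. Few cells carried them: after thinning to 2000 UMIs, 3.01% of Control and 4.60% of Null immune-like cells held an Mmp8 UMI, and unthinned 5.16% and 12.7% did. In acinar-like cells, at median depths of 32090 and 47729 UMIs against 11951 and 17568 in immune-like cells, the unthinned Mmp8 share was 0.03% and 0.08%. Timp4 and Mmp24 were highest in neural or glial-like cells, at 2.79 and 5.36 and at 2.79 and 4.77 CPM, from few UMIs.

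The comparison of Null with Control asks how these genes stand when Fgf9, a growth factor made by the mesothelium, is lost. In mesenchymal-like cells the members were more often higher than lower in Null. Among the 31 of 49 members that reached 20 UMIs in this class, 23 were higher and 8 lower, where 50.8% of all genes were higher. Their median log2 ratio of Null over Control was 0.35, against 0.0062 over all 14539 genes with as many UMIs. At least 2-fold higher were 6 of 31 members, Adamts19, Adamts20, Adamtsl4, Timp1, Adamtsl5 and Adamts3, against 4.49% of all genes. At least 2-fold lower were 0 of 31 members, against 6.18% of all genes. Different clusters hold most of this class in the 2 libraries: cluster S0 had 1780 of the 2299 Control and 37 of the 729 Null cells, cluster S6, led by Lum, Dcn and Mgp, had 113 and 515, and cluster S5 had 406 and 177. Without S6, 3 of 31 measured members were at least 2-fold higher, Adamts19, Adamts20 and Timp1. Within S5 alone 3 of 28 were, Adamts19, Adamts20 and Adamtsl5. The share of all genes past 2-fold was not computed in either setting. Markers of other cells moved with the library: mural markers summed to 438 CPM in Control and 938.5 in Null mesenchymal-like cells (8 of 9 measured higher, none at 0), and acinar enzymes to 2950 and 1351 CPM (12 of 12 lower). Their part in these ratios was not tested. Fewer cells of a kind and less RNA per cell cannot be told apart in such class sums.

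Adamts19, an ADAMTS protease without a well-defined substrate, showed the largest ratio in the mesenchymal-like class. It was counted 73 times in Control and 201 times in Null, or 3.29 and 16.1 CPM, 4.88-fold higher in Null (log2 ratio 2.29, 95% interval 1.90 to 2.70). Within S5 it was at 1.86 CPM in Control (10 UMIs, 95% interval 0.89 to 3.42) and 17.3 in Null (67 UMIs, 13.4 to 21.9). The intervals overlapped in the other clusters: S0 gave 3.27 CPM in Control (2.44 to 4.30) and 14.5 in Null from 3 UMIs (2.99 to 42.4), and S6 gave 10.0 from 12 UMIs (5.17 to 17.5) and 15.6 from 131 (13.0 to 18.5). Over all alternative settings the log2 ratio stayed between 1.65 and 3.22. Thinned to 2000 UMIs, 0.57% of Control and 2.40% of Null mesenchymal-like cells held an Adamts19 UMI, and unthinned 2.87% and 13.6% did. Adamts19 was highest in the mesothelial-like class in both libraries. The summed mesothelial markers in mesenchymal-like cells were 57.4 CPM in Control and 29.7 in Null. Of 8 measured markers 7 were lower and none was at 0. The part of mesothelial-like or other cells in the Adamts19 ratio was not tested.

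Adamts20 (ENSMUSG00000022449, chr15:94270163-94465418), a versican-cleaving protease related to Adamts9, was at 3.47 CPM in Control and 10.1 in Null, 2.90-fold higher. It stood at 3.71 and 8.51 CPM in S5 and at 10.8 and 11.1 in S6, while S0 gave 2.82 in Control and 0 UMIs in its 37 Null cells. With the clusters of the class weighted alike its log2 ratio was 0.17, against 1.54 as summed. Mmp16 (ENSMUSG00000028226, chr4:17852893-18119145), a membrane-type protease that activates pro-MMP2, was at 41.7 and 83.2 CPM, and its log2 ratio of 1.00 became 0.23 with the clusters weighted alike. Among the 3 clusters Mmp16 was highest in S6, at 84.2 CPM in Control and 97.0 in Null, against 39.2 and 38.7 in S0 and 39.4 and 55.5 in S5. Without S6 its log2 ratio was 0.48. A larger share of S6 cells and a higher level within cells cannot be told apart in the class value.

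Timp1 (ENSMUSG00000001131, chrX:20870166-20874735), the secreted inhibitor of most MMPs, was at 26.5 CPM in Control and 56.2 in Null, 2.12-fold higher. It was higher in Null in S0 (23.1 and 48.4), S5 (33.1 and 53.7) and S6 (40.8 and 57.5). Null S0 had 10 UMIs in 37 cells, and its counting interval (23.2 to 88.9) overlapped that of Control (20.8 to 25.6). The intervals also overlapped in S6 (30.2 to 53.97 and 52.48 to 62.85), but not in S5 (28.4 to 38.3 and 46.6 to 61.5). The Timp1 log2 ratio stayed between 0.70 and 1.12 over all settings, so at its lowest it fell short of 2-fold. Timp1 lies on the X chromosome, and the part of the difference in Xist between the libraries was not tested. The microfibril-associated Adamtsl5 was at 7.17 and 15.0 CPM (2.10-fold higher), and Adamts3, a procollagen II and VEGFC-processing protease, was at 2.75 and 5.52 (2.01-fold higher). Both fell short of 2-fold in some settings: the Adamtsl5 log2 ratio was 0.63 without S6 and 0.80 with free RNA subtracted, and that of Adamts3 was 0.72 within S5 at its lowest. Adamts8 was at 7.35 and 13.1, Mmp17 at 3.61 and 6.16, Adamts15 at 9.42 and 14.4, and Mmp23 at 18.8 and 27.8 CPM. With clusters weighted alike, Mmp17 and Mmp23 changed sign, at log2 ratios of -0.72 and -0.22. Adamts1 was 1.27-fold and Adamts9 1.28-fold higher, and the Adamts1 log2 ratio of 0.35 was 0.07 without S6 and -0.04 at a finer clustering.

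Members at lower levels in Null mesenchymal-like cells differed less. Mmp11 (ENSMUSG00000000901, chr10:75923222-75936496) was at 29.9 CPM in Control and 19.04 in Null, a log2 ratio of -0.65 (95% interval -0.87 to -0.43), and it was lower in S0, S5 and S6. The log2 ratio was -0.10 without S0 and -1.24 without S6. Adamts17 was at 15.9 and 11.3 (log2 ratio -0.50), and its ratio turned to 0.34 within S5 and 0.72 without S0. Adamts12, a protease of cartilage oligomeric matrix protein, had a log2 ratio of -0.34 and Adamts7, which shares that substrate, -0.31. Within S5 alone these ratios were -0.0093 and -0.01. Mmp2 (86.9 and 81.6 CPM), Adamts5 (111 and 102), Timp3 (155 and 147), Adamts2 (35.2 and 35.7) and Adamtsl1 (80.1 and 81.0) differed at most 1.08-fold between the libraries. Timp3 turned higher in Null with clusters weighted alike, at a log2 ratio of 0.39, and Adamts5 without S0, at 0.25.

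**Figure D2:**
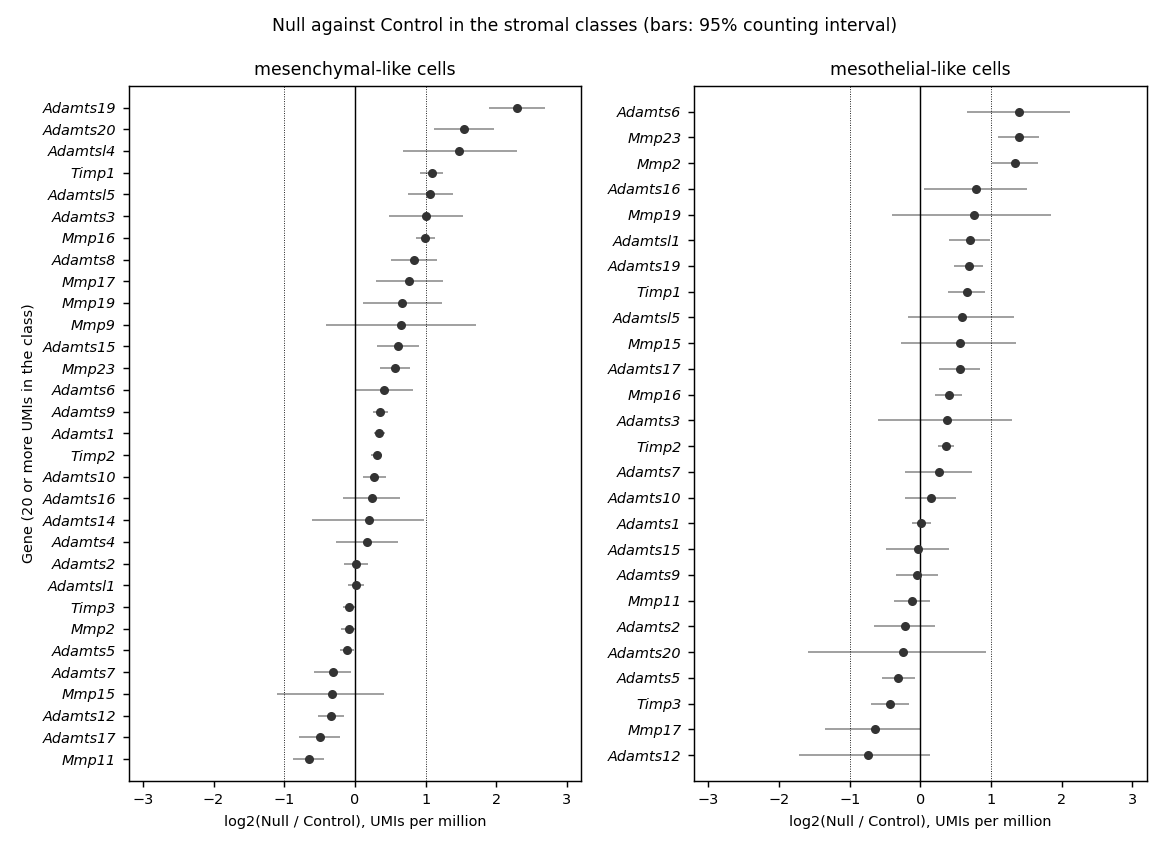
Log2 ratio of Null over Control (x axis) for each gene with at least 20 UMIs in the class (y axis), in mesenchymal-like cells on the left and mesothelial-like cells on the right, with 95% counting intervals as bars and dotted lines at 2-fold. Adamts19 is at 2.29 in the left panel and Mmp23 and Mmp2 are at 1.39 and 1.34 in the right panel. Adamtsl3, at 0 UMIs in Null mesothelial-like cells, is not drawn.

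In mesothelial-like cells 17 of 27 measured members were higher in Null and 10 lower (51.1% of all genes were higher). Their median log2 ratio was 0.36, against 0.0093 over all 13527 genes. At least 2-fold higher were 3 of 27 members, Mmp23, Mmp2 and Adamts6, against 4.47% of all genes. At least 2-fold lower was 1 of 27, Adamtsl3, against 4.93% of all genes. Mmp23 (ENSMUSG00000029061, chr4:155650655-155653384), a short membrane-anchored protease, was at 15.8 CPM in Control and 41.4 in Null, 2.62-fold higher, with 16.2 and 41.0 in cluster S2 and 14.9 and 41.8 in cluster S3. Mmp2 (ENSMUSG00000031740, chr8:92827291-92853420) was at 13.0 and 32.8 CPM, 2.53-fold higher, with 14.4 and 25.01 in S2 and 10.0 and 41.8 in S3. Thinned to 2000 UMIs per cell, its log2 ratio was 0.52 in place of 1.34, and it was 2.06 without S2, 0.79 without S3 and 2.33 at the finer clustering. Adamts6 rested on 36 and 32 UMIs, or 2.68 and 7.04 CPM.

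Adamts19 was at 41.7 CPM in Control and 67.1 in Null mesothelial-like cells (log2 ratio 0.69, 95% interval 0.48 to 0.89). Adamtsl1 was at 21.5 and 35.0, Timp1 at 26.4 and 41.6, Adamts17 at 22.3 and 32.8, Timp2 at 154 and 198, and Mmp16 at 52.1 and 68.7 CPM. Adamts17 thus stood higher in Null mesothelial-like and lower in Null mesenchymal-like cells, a difference that was not tested. Lower in Null were Timp3 (44.4 and 33.01 CPM), Adamts5 (52.4 and 42.2) and Mmp17 (8.27 and 5.28). Timp3 differed by cluster, at 39.4 and 18.4 CPM in S2 and 54.2 and 49.9 in S3, and its log2 ratio of -0.43 was -1.24 with cells thinned, -1.10 without S3, -0.12 without S2 and 0.11 at the finer clustering. The Adamts5 log2 ratio of -0.31 was 0.18 with cells thinned. Adamtsl3 was counted 39 times in Control and 0 times in Null, or 4.40-fold lower with 3 UMIs put in for the 0. The upper bound of its 95% interval was a log2 ratio of -1.77. Mesenchymal markers moved with these ratios: summed over 12 genes they were at 3119 CPM in Control and 7800 in Null mesothelial-like cells, 9 of 11 measured were higher and none was at 0. Acinar enzymes made up 0.25% of Control and 0.13% of Null UMIs in this class. Free RNA, estimated from them as described below, was put at 20.8% and 5.59%. The part of mesenchymal cells or of free RNA in the higher Mmp2 and Mmp23 was not tested.

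A pair of stromal clusters with 1 Control cell each stayed unnamed. Cluster S8, with 1 Control and 190 Null cells, was led by Oprk1, Dcn and Upk3b, and another class had more markers among its leading genes than its best match. It held Mmp2 at 92.8, Timp1 at 89.4, Mmp23 at 60.2 and Adamts19 at 34.6 CPM. Cluster S9, with 1 Control and 92 Null cells, was led by Angptl7 and had no clear lead of 1 class in its marker score. Its Null cells held Adamts19 at 200 and Mmp2 at 192 CPM, above every named class, and both genes were among its 10 leading genes. With 1 library per group a cluster of 1 library may be that library and not a cell type. When S8 was counted with the mesothelial-like class, 8 members were at least 2-fold higher and 2 at least 2-fold lower. S8 adds 190 cells to the 229 of Null and 1 to the 1063 of Control. The share of all genes past 2-fold was not computed with S8 added, so these counts have no background beside them.

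**Figure D3:**
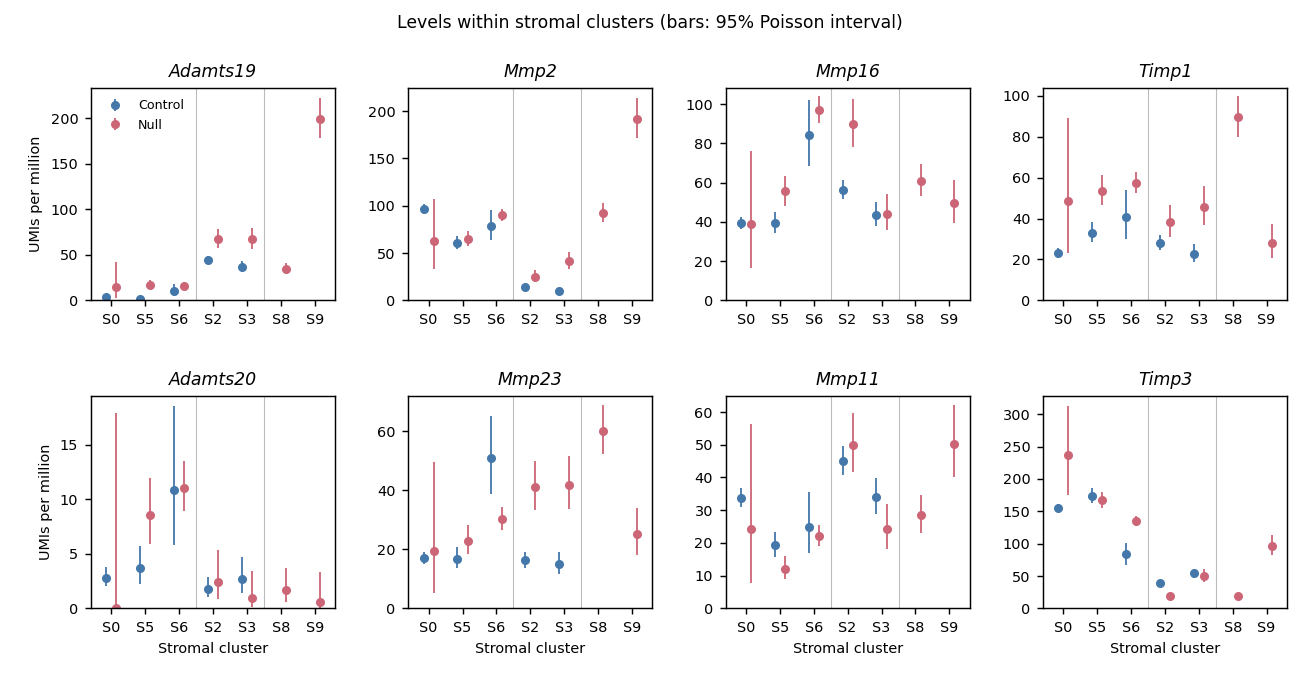
Levels of 8 genes in CPM (y axis) in the mesenchymal-like clusters S0, S5 and S6, the mesothelial-like clusters S2 and S3 and the unnamed clusters S8 and S9 (x axis), in Control (blue) and Null (red), with 95% Poisson intervals; S8 and S9 have 1 Control cell each, which is not drawn. Adamts19 points lie higher in Null in all 5 named clusters, with overlapping bars in S0 and S6, and its own highest level is 200 in S9, while Adamts20 and Mmp16 differ little between the libraries within S6.

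In ductal or bipotent progenitor-like cells Adamts1 and Adamts9 had log2 ratios of 0.21 and -0.04, and in acinar-like cells of -0.19 and 0.31. In the ductal or bipotent progenitor-like class 21 of 32 measured members were higher in Null, with a median log2 ratio of 0.19 against 0.09 over all genes. Of all genes in this class 64.9% were higher in Null, so the members' count is near the background. At least 2-fold higher was 1 of 32 members, Mmp23 (3.49 and 7.09 CPM), against 2.86% of all genes, and at least 2-fold lower was 1, Adamts2, against 2.32%. Mmp7 (log2 ratio 0.87), Mmp11 (0.69) and Mmp15 (0.63) were higher in Null, and Mmp2 lower (-0.97), from levels of 1.36 and 0.70 CPM. In acinar-like cells 1 of 33 members, Timp4, was at least 2-fold higher (all genes 1.8%), and 8 were at least 2-fold lower (all genes 3.34%). Those 8 included Adamts16 (2.76 and 0.93 CPM), Adamts19 (3.14 and 1.198), Adamts5 (2.82 and 1.17) and Mmp2 (0.84 and 0.36), genes whose levels were highest in ductal or stromal classes. Mmp15 was higher in Null acinar-like cells, at 4.61 and 7.96 CPM, as was Adamts18, at 1.10 and 2.07. In endocrine progenitor-like cells 1 of 22 members, Mmp7, was at least 2-fold higher (all genes 1.16%) and 2, Mmp2 and Adamts2, at least 2-fold lower (all genes 4.3%). Adamtsl2 had a log2 ratio of 0.44 there and Adamts9 of -0.64.

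Endocrine-like and immune-like cells had many members at lower levels in Null, together with lower shares of free RNA and of cells marked as doublets. In endocrine-like cells 0 of 29 members were at least 2-fold higher (all genes 2.2%) and 12 were at least 2-fold lower (all genes 8.58%). Adamts1 was at 121 CPM in Control and 30.3 in Null there, and Adamts9 at 62.9 and 14.7. In immune-like cells 11 of 21 members were at least 2-fold lower (all genes 12.1%), with Adamts1 at 121 and 18.4 CPM and Adamts9 at 66.2 and 13.2. The 3 of 21 that were at least 2-fold higher were Mmp8, Mmp9 and Mmp25 (all genes 3.29%). Free RNA was estimated from acinar digestive enzymes, which these cells do not make. Their share in the class was divided by their share over all kept cells, 1.22% in Control and 2.24% in Null. Acinar-like cells were 12.7% of kept Control and 28.2% of kept Null cells. The estimate was 49.1% of UMIs in Control and 11.3% in Null endocrine-like cells, and 32.6% and 8.14% in immune-like cells. The enzyme shares themselves were 0.60% and 0.25% in endocrine-like and 0.40% and 0.18% in immune-like cells. A second doublet call, made on barcodes with at least 5000 UMIs and not used to remove cells, marked 11.8% of Control and 1.16% of Null endocrine-like cells and 15.5% and 0.73% of immune-like cells. It marked 17.4% and 0.54% of endothelial-like cells. The part of free RNA and of doublets in these levels was not tested. In mesenchymal-like cells the estimates were 24.3% and 6.02%, and with free RNA subtracted the Adamts1 log2 ratio there was 1.08 in place of 0.35.

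Genes around the proteases were read from 3 lists. Of 17 measured activators, receptors and other regulators of matrix proteases, 1 was at least 2-fold higher and 3 at least 2-fold lower in Null mesenchymal-like cells, with a median log2 ratio of 0.10. Over all genes of this class 4.49% were at least 2-fold higher and 6.18% at least 2-fold lower. The lower ones included Serpine2, an inhibitor of plasminogen activators and thrombin, at 160 CPM in Control and 65.4 in Null. Of 21 other metalloproteases and matrix proteases, 3 were at least 2-fold higher and 2 lower (median 0.10): Adam12 was at 27.4 and 59.9 CPM, and the matrix serine protease Htra1 at 104 and 33.5. Of 16 known substrates of these enzymes, 15 were higher in Null (50.8% of all genes were), 6 of them at least 2-fold and 1 at least 2-fold lower (median 0.71). Versican (Vcan) was at 170 and 397 CPM and fibronectin (Fn1) at 39.3 and 179, while aggrecan (Acan), named after its values were seen, was at 3.11 and 1.28. In mesothelial-like cells 14 of 15 measured substrates were higher, 7 of them at least 2-fold (median 0.88), 4 of 17 regulators and 5 of 20 other proteases were at least 2-fold higher, and 0 and 2 were at least 2-fold lower. Over all genes of the mesothelial-like class 4.47% were at least 2-fold higher and 4.93% at least 2-fold lower. The substrate list holds Col1a1, Col1a2, Col3a1 and Dcn, which are also among the mesenchymal markers. Those genes and Vcan were among the leading genes of cluster S6. That cluster had 113 of the 2299 Control and 515 of the 729 Null mesenchymal-like cells. The part of this cluster difference in the substrate ratios of the mesenchymal-like class was not tested.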

How the data were processed

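Droplet libraries were processed with bcl2fastq, Cell Ranger 6.1.1 and Seurat 3.2.3 on mm10, per the submitters' processing notes, and the authors deposited whole UMI counts per gene and barcode, not normalised. Barcodes with at least 1000 UMIs, 300 genes and at most 15% mitochondrial UMIs were kept. Scrublet removed doublets (520 in Null at its own threshold; 220 in Control at a score of 0.25, where it found no threshold of its own). Both libraries were clustered together (scanpy 1.11.5, 2000 variable genes without the members, 30 components, Leiden resolution 1, stroma again at 0.5), and clusters were named from marker lists. The naming thresholds (at least 3 markers, a score lead of 0.5, a median of at least 2500 UMIs, no other class with more markers among the 10 leading genes) were set after the data were seen. UMIs were summed per class and library and divided by the class total. Ratios carry exact conditional Poisson intervals and shares exact Clopper-Pearson intervals. Only the ratio intervals were run on simulated data. Those counts were drawn from the Poisson model that the intervals assume, so spread beyond counting error was not checked. Cells are not replicates, so no p-value was computed. Named were the members with at least 100 UMIs in a class and an interval without 0, ranked by the bound nearest 0 (the first 10 per direction in mesenchymal-like, 6 in mesothelial-like and 4 in other classes), and the 5 highest per class; other members were named with their values after these were seen. The members, lists and comparisons were chosen with earlier results of these data known. Gene positions are from GENCODE vM21, where 49 of 49 members matched.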

Additional observations from a re-analysis of the deposited data

How the results depend on the processing

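Counts of members at least 2-fold apart depended on the makeup of the classes. The share of all genes past 2-fold was not computed in the alternative settings, so the counts there have no background beside them. In mesenchymal-like cells 6 members were higher: 3 within the cluster shared by both libraries (S5) and 3 without cluster S6, and 5 to 8 in the other settings. The 0 lower members became 1 with clusters weighted alike, 2 with no minimum on UMIs, 1 within S5 and 2 without S6. In mesothelial-like cells the 3 higher members became 1 with cells thinned to 2000 UMIs, 6 with free RNA subtracted, 5 with no minimum and 8 with the mixed cluster S8 added. The 1 lower member became 2 with means over cells, 0 with a minimum of 100 UMIs, 2 with S8 added and 2 without S3. Of 242 alternative values of 22 named members in mesenchymal-like cells, 168 stayed within the counting interval, 59 moved and 15 changed sign, and of 121 values of 11 members in mesothelial-like cells 95, 24 and 2 did. Log2 ratios of changed sign in mesenchymal-like cells were Mmp23 -0.22, Mmp17 -0.72, Timp2 -0.033, Adamts6 -0.23 and Timp3 0.39 with clusters weighted alike; Timp2 -0.0038, Adamts6 -0.46 and Timp3 0.10 without S6; Adamts1 -0.042 and Adamts5 0.0027 at Leiden resolution 2; Mmp19 -0.075 thinned; Adamts17 0.34 and Adamts5 0.13 within S5; and Adamts17 0.72 and Adamts5 0.25 without S0. In mesothelial-like cells they were Timp3 0.11 at resolution 2 and Adamts5 0.18 thinned. The cause of these changes was not tested. The settings that select or leave out clusters were chosen after seeing the data. Members under 20 UMIs in a class gave no ratio at this depth. No paired analysis was possible because each group is 1 library.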
